A study of Mus musculus with 4 samples.

Results

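Nuclear factor kappa B (NF-kB) is a family of transcription factors that act as pairs of subunits. In resting cells inhibitors of the IkB family hold the pairs in the cytoplasm, and inflammatory signals release them by destroying the inhibitor. NF-kB then switches on genes of inflammation together with genes of its own inhibitors, a feedback that is well known in macrophages. Described here are 10 genes. They include the subunits Rela, Relb, Nfkb1 and Nfkb2, the cytoplasmic inhibitors Nfkbia and Nfkbie, and the nuclear IkB family members Nfkbiz and Bcl3. The others are the deubiquitinating enzyme gene Tnfaip3 and the prostaglandin-forming enzyme gene Ptgs2, an inflammatory target.

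The genes were chosen by name, with earlier results of these data known. All 10 were among the 24934 genes named on the arrays, and 19 array probes carried their names. Each was represented by its brightest probe, which was well above background on all 4 arrays for every one of the 10.

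Mouse RAW264 cells, a macrophage-like cell line of BALB/c origin, received small interfering RNA (siRNA) against GFP, a protein that mouse cells lack, or against the transcription factor genes Tfe3 and Tfeb. From 48 hours after transfection the cultures stood for 24 hours with 500 µM ferric chloride or without it. The 4 groups, siGFP and siTfe3/Tfeb each without and with iron, shared the cell line and a transfection with siRNA and held 1 one-colour expression array each. With 1 array in a group there is no spread between replicates, and no test between conditions was made. Every difference given here is between arrays with no replicate check, and the number of arrays limits its precision.

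Levels are log2 of the processed spot intensity minus the 75th percentile of the array, so that 0 is that percentile. That percentile lay between 593 and 636 intensity units, no spot was saturated, and 14366 to 14937 genes were well above background on an array. The only error available was the spread of repeated spots of a probe on the same array, called spot SD below and given for a log2 difference. It was 0.064 above a level of 2, 0.089 from 1 to 2, 0.078 from 0 to 1, 0.12 from -1 to 0, 0.19 from -2 to -1 and 0.26 from -4 to -2. They came from 1090, 8, 8, 9, 1 and 40 pairings of a repeated probe with an array and leave out variation between cultures. All 12 macrophage markers were well above background on all 4 arrays, against 1 of 6 fibroblast, 1 of 6 epithelial, 2 of 5 endothelial, 4 of 6 lymphocyte and 3 of 6 neutrophil markers. Tfe3 stood at 4.33 without and 4.17 with iron in siGFP cells, and at 3.60 without and 3.63 with iron in siTfe3/Tfeb cells. Tfeb differed by -0.14 without and 0.16 with iron between siTfe3/Tfeb and siGFP cells, at a spot SD of 0.12. Its lower level without iron thus barely passed the spot SD, and with iron no lower level was visible. Knockdown below names the siRNA label and says nothing of the Tfeb level. The related Mitf differed by -0.09 and -0.05 with knockdown without and with iron, and Tfec by -0.65 and 0.04. Tfec was dim, at -3.90 in siGFP and -4.55 in siTfe3/Tfeb cells without iron. The spot SD was 0.26 from -4 to -2 and 0.68 below -4, and the -0.65 spans both ranges.

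Start regions of the genes are shown first, because NF-kB acts on several of them directly as feedback. RefSeq start regions (assembly GRCm38.p6, 250 bases before to 50 after a start) matched 7 of the 10 genes, with 10 start regions among them: Nfkbia, Nfkbie, Tnfaip3, Rela, Nfkb2, Bcl3 and Ptgs2. The 10-base NF-kB consensus was searched on both strands, counting overlapping matches. It occurred in 5 of the 7 genes, beside 9.55% of 27025 genes with a start region, and in 7 of the 10 regions, beside 8.46% of 32851 start regions of the same length. Of those 7 regions 3 belong to Nfkb2, and a pair of these overlaps and shares a match, so that the 6 matches summed over them are 5 places in the genome. Rela and Ptgs2 had no match in this window. The sequences below are the 250 bases before the start of 4 genes with a match there, and of Ptgs2 for comparison. They run 5′ to 3′ on the gene's strand, and capitals mark bases of the NF-kB consensus.
Nfkbia, chr12:55492648-55492897, minus strand: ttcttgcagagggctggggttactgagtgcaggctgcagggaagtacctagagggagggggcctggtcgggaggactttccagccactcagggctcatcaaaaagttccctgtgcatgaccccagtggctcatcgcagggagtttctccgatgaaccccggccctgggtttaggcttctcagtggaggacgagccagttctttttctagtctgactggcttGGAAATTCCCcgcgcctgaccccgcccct
Nfkbie, chr17:45555450-45555699, plus strand: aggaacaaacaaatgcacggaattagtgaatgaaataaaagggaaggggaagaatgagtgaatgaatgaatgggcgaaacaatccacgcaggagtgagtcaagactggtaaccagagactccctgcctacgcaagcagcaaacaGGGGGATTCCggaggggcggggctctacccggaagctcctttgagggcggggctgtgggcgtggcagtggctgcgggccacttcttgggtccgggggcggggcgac
Tnfaip3, chr10:19015411-19015660, minus strand: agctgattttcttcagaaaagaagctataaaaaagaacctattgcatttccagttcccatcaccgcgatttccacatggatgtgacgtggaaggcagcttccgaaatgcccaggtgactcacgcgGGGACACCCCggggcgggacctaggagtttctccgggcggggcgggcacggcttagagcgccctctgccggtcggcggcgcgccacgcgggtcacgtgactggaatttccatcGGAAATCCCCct
Nfkb2, chr19:46304487-46304736, plus strand: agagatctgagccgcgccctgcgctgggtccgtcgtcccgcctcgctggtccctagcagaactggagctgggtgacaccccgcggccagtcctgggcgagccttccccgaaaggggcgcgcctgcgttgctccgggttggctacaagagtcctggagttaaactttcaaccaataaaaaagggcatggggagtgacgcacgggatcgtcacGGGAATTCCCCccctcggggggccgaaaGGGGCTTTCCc
Ptgs2, chr1:150099781-150100030, plus strand: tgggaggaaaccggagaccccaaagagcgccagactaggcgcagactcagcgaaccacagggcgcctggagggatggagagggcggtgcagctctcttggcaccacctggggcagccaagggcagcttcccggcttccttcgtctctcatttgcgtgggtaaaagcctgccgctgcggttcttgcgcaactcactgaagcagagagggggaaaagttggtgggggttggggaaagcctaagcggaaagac

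In Nfkbia the match began 29 bases before the start, and in Nfkbie 106 bases before it. Tnfaip3 had matches that began 125 and 12 bases before its upstream start. Nfkb2 had a pair of overlapping matches, which began 39 and 38 bases before its first start, and a further one 11 bases before it. Bcl3 had its match after the start, at bases 3 to 12. The E-box CACGTG, which MiT/TFE factors such as Tfe3 and Tfeb can bind, was found in the start regions of Tnfaip3, beginning 33 bases before the start, and Ptgs2, at bases 17 to 22 after it. It occurred in 7.15% of all start regions. A match describes letters in a window and is no evidence of binding.

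The highest level of 8 of the 10 genes was on the siGFP array without iron, whereas 25.1% of the 13887 genes well above background on all 4 arrays had their highest level there. Tnfaip3 and Ptgs2 were the exceptions, with their highest level in siTfe3/Tfeb with iron, where 18.4% of all genes had theirs. The lowest level of 5 genes was on the siTfe3/Tfeb array without iron, where 32.0% of all genes had theirs. None of the 10 had its lowest level in siGFP without iron, where 18.6% of all genes had theirs. The span from the lowest to the highest array had a median of 0.59 over the 10 genes, beside 0.41 over all genes. It reached 2-fold for Ptgs2 alone, 1 of 10 genes, as it did for 8.69% of all genes.

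**Figure D1:**
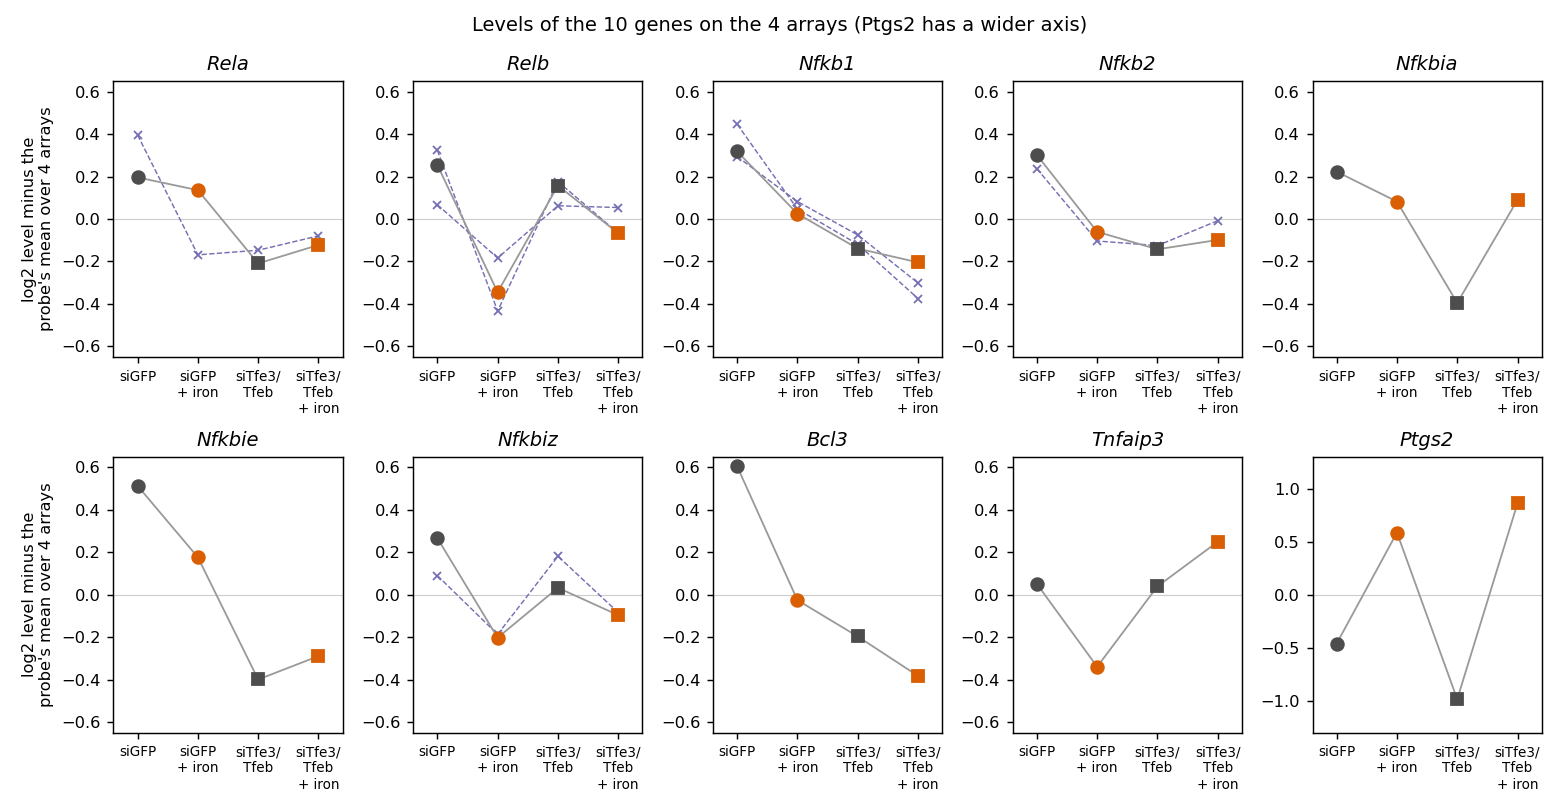
Each panel plots 1 gene's log2 level on the 4 arrays minus the mean of that probe over the arrays. Large symbols are the brightest probe (circles siGFP, squares siTfe3/Tfeb, orange with iron), dashed lines are other probes well above background on all arrays, and lines only join values of a probe. The siGFP array without iron is highest in 8 of the 10 panels, and Ptgs2, on a wider axis, is high on both iron arrays.

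Among the subunits, Rela codes for the main activating partner of the canonical pathway. Its brightest probe (mm9 chr19:5648070-5648129, plus strand, from base 2648 of its transcript) stood at 4.19 without and 4.13 with iron in siGFP cells, and at 3.79 without and 3.87 with iron in siTfe3/Tfeb cells. The siGFP arrays did not differ beyond the spot SD, and both stood above both knockdown arrays. The difference with iron was -0.06 in siGFP cells but 0.09 in siTfe3/Tfeb cells (spot SD 0.064). With knockdown it was -0.41 without iron and -0.26 with iron. A dimmer Rela probe (chr19:5645363-5645529) gave -0.56 (spot SD 0.26) with iron in siGFP cells, larger than the brightest probe. With knockdown under iron it gave 0.09, within its spot SD of 0.26. With the mean of both probes the difference with iron in siGFP cells was -0.31, that with knockdown under iron -0.08, and the difference of iron responses 0.39.

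Nfkb1 codes for a precursor that is processed into the usual partner of the Rela protein. Its brightest probe (chr3:135247898-135247958, minus strand) stood at 3.70 without and 3.40 with iron in siGFP cells, and at 3.24 without and 3.17 with iron in siTfe3/Tfeb cells. Each step in this order was larger than the spot SD of 0.064, the last of them barely, at 0.065. Iron went with -0.29 in siGFP cells but -0.07 in siTfe3/Tfeb cells, and knockdown with -0.46 without iron and -0.23 with iron. The other Nfkb1 probes had the same sign in all of these comparisons. Their differences with iron in siTfe3/Tfeb cells were -0.23 and -0.26, larger than that of the brightest probe. With the mean of the 3 probes that difference was -0.18, the knockdown difference with iron -0.34, and the difference of iron responses 0.12.

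Relb and Nfkb2 code for the subunits of the slower, non-canonical pathway. Relb (chr7:20191722-20191781, minus strand) stood at 1.35 without and 0.75 with iron in siGFP cells, and at 1.25 without and 1.03 with iron in siTfe3/Tfeb cells. Both iron arrays were below both arrays without iron. The difference with iron was -0.60 (spot SD 0.084) in siGFP cells, where only 246 of 14304 genes had a lower one, and -0.22 (0.089) in siTfe3/Tfeb cells. With knockdown Relb differed by -0.10 without iron, little more than its spot SD, and by 0.28 with iron. Another Relb probe gave -0.76 and -0.24 with iron in the same order, and the dimmest gave -0.25 and -0.01.

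Nfkb2 (chr19:46386440-46386499, plus strand) stood at 2.14 without and 1.78 with iron in siGFP cells, and at 1.69 without and 1.74 with iron in siTfe3/Tfeb cells. The siGFP array without iron was above the other 3, and those did not differ beyond the spot SD from their neighbours in order. Iron went with -0.36 (spot SD 0.078) in siGFP cells but 0.04 (0.089) in siTfe3/Tfeb cells, and knockdown without iron with -0.44. A second Nfkb2 probe gave -0.34, 0.12 and -0.36 for these. With knockdown under iron the probes differed in sign. The brightest gave -0.04 (0.089) and the second 0.10 (0.089). Rel, the remaining subunit gene, which was added after its values were seen, differed in pattern: it was at 1.44, 1.15, 1.71 and 1.40 in the order of the groups, with its highest level in siTfe3/Tfeb without iron.

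Among the cytoplasmic inhibitors, Nfkbia codes for IkB alpha, the inhibitor that is lost and made anew within a round of NF-kB activity. Its single probe (chr12:56590945-56591440, minus strand, a 60-base probe whose ends lie 496 bases apart in the genome) stood at 5.25 without and 5.11 with iron in siGFP cells, and at 4.63 without and 5.12 with iron in siTfe3/Tfeb cells. The knockdown array without iron stood apart, below the other 3. Knockdown went with -0.62 (spot SD 0.064) without iron, which is 65.1% of the siGFP level, and with 0.01 with iron. Iron went with -0.14 in siGFP cells but 0.49 in siTfe3/Tfeb cells.

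Nfkbie, which codes for the related inhibitor IkB epsilon, had the largest knockdown difference of the 10 genes without iron. Its probe (chr17:45700000-45700059, plus strand) stood at 0.87 without and 0.54 with iron in siGFP cells, and at -0.04 without and 0.07 with iron in siTfe3/Tfeb cells. Both knockdown arrays were below both siGFP arrays. The knockdown difference was -0.91 (spot SD 0.10) without iron, 53.1% of the siGFP level, where 348 of 14344 genes had a lower one, and -0.47 (0.078) with iron. Iron went with -0.34 in siGFP cells but 0.11 in siTfe3/Tfeb cells.

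Nfkbiz and Bcl3 code for nuclear members of the IkB family, which bind NF-kB at its target genes rather than holding it in the cytoplasm. Bcl3 (chr7:20393826-20393885, minus strand) stood at 1.74 without and 1.11 with iron in siGFP cells, and at 0.94 without and 0.75 with iron in siTfe3/Tfeb cells. Its span of 1.98-fold was the widest of the 10 after Ptgs2, and every step in the order exceeded the spot SD. Iron went with -0.63 (spot SD 0.089) in siGFP cells, the lowest of the 10, and -0.19 (0.078) in siTfe3/Tfeb cells. Knockdown went with -0.80 (0.084) without iron and -0.36 (0.084) with iron. A second Bcl3 probe was not well above background on any array. With the mean over both probes the iron difference in siGFP cells was -0.30, no longer the lowest of the 10, and the knockdown differences were -0.48 without and -0.18 with iron.

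Nfkbiz (chr16:55812091-55812150, minus strand) stood at 0.06 without and -0.41 with iron in siGFP cells, and at -0.17 without and -0.30 with iron in siTfe3/Tfeb cells. Its order was the same as that of Relb, with both iron arrays lowest, but those did not differ from each other beyond the spot SD. Iron went with -0.47 (spot SD 0.10) in siGFP cells but -0.13 (0.12) in siTfe3/Tfeb cells. Another Nfkbiz probe gave -0.28 (0.23) and -0.27 (0.23) with iron in the same order. With knockdown without iron the brightest probe gave -0.23 (0.10) and the other 0.09, within its spot SD of 0.19. With the mean of these probes that knockdown difference was -0.07, and the difference of iron responses was 0.18. A further Nfkbiz probe was not well above background on any array.

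Tnfaip3 codes for an enzyme that edits ubiquitin chains and so ends signalling upstream of the IkB kinase. Its probe (chr10:18720776-18720835, minus strand) stood at 0.74 without and 0.35 with iron in siGFP cells, and at 0.73 without and 0.94 with iron in siTfe3/Tfeb cells. The arrays without iron were alike within the spot SD of 0.078, and the iron arrays lay on either side of them. Iron went with -0.39 in siGFP cells but 0.21 in siTfe3/Tfeb cells. Knockdown went with -0.01 without iron and 0.59 with iron, 150% of the siGFP level.

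Ptgs2 codes for the inducible cyclooxygenase, which makes the precursor of prostaglandins. Its probe (chr1:151954744-151954803, plus strand, from base 3839 of its transcript) stood at -0.70 without and 0.35 with iron in siGFP cells, and at -1.22 without and 0.62 with iron in siTfe3/Tfeb cells. Both iron arrays were above both arrays without iron, and Ptgs2 was the only one of the 10 genes with that order. In siGFP cells it was 2.07-fold higher with iron (log2 difference 1.05, spot SD 0.10), rank 182 of 14304 genes. That lay at the 2-fold line and was 0.93 with either form of normexp background correction. With iron in siTfe3/Tfeb cells Ptgs2 was 3.59-fold higher (1.85, 0.14), rank 49 of 14149. With knockdown it was at 69.6% of the siGFP level without iron (-0.52, spot SD 0.16) and 121% with iron (0.28, 0.078).

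The genes whose 4 levels were closest in shape to Ptgs2 were Dusp4, which codes for a phosphatase of MAP kinases, Igf1, which codes for a growth factor, and Clec4d, which codes for a C-type lectin receptor. Their Euclidean distances from Ptgs2, over 4 centred log2 values, were 0.21, 0.28 and 0.28. Dusp4 stood at 0.70, 1.81, 0.27 and 1.85 in the order of the groups used throughout, siGFP cells first and no iron before iron. No other of the 10 genes spanned 2-fold, so none was matched.

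Set side by side, most of the 10 genes were lower with iron in siGFP cells. Of them 9 were below 0, with a median log2 difference of -0.35, and 8 of those 9 exceeded the spot SD, Rela being the exception. How many of all genes passed their own spot SD was not counted in any comparison. Passing it thus does not set these genes apart. Over all 14304 genes 54.0% were below 0 and the median was -0.02. At least 2-fold higher was 1 of the 10, Ptgs2, against 1.41% of all genes, and 0 of 10 were 2-fold lower, against 0.266%. Since all RNA of a culture is measured together, fewer cells of a kind and less RNA per cell cannot be told apart. These differences were taken from the siGFP array without iron, where 8 of the 10 genes were highest. Knockdown without iron, given below, is taken from the same array, so these results are not independent. A deviation of that culture and a lower level with iron or knockdown cannot be told apart.

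In siTfe3/Tfeb cells the iron differences were divided. Of the 10 genes 6 were above 0 and 4 below, where 49.1% of 14149 genes were above 0. The median of the 10 was 0.07, beside -0.01 over all genes. Nfkbia, Tnfaip3 and Ptgs2 were higher by more than 2 spot SDs, Relb and Bcl3 lower by as much, and the other 5 within 2 spot SDs. Again only Ptgs2 was at least 2-fold higher, where 1.63% of all genes were, and none was 2-fold lower, where 0.452% were.

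Without iron all 10 genes were lower with knockdown, except that Tnfaip3 was slightly above 0 under 3 of 8 alternative scalings or corrections. The median was -0.45, with a range from -0.91 for Nfkbie to -0.01 for Tnfaip3. Over 14344 genes 53.4% were below 0 and the median was -0.03. Tnfaip3 lay within its spot SD and Relb within 2. Of the 12 macrophage markers 9 were also lower with knockdown without iron, with a median of -0.17 and the lowest values at -0.79 for Fcgr1 and -0.74 for Cd14. Their summed level, in multiples of the 75th percentile, was 1272 without and 1267 with iron in siGFP cells, and 1076 without and 1152 with iron in siTfe3/Tfeb cells. Of the neutrophil markers S100a8 was at least 3.82-fold and S100a9 at least 2.40-fold lower with knockdown without iron. Camp and Elane differed by only -0.28 and -0.16 there, Mpo was higher by 0.33, and Ly6g was not well above background on any array. With iron in siGFP cells S100a9 was also lower, at least 2.17-fold, while S100a8 differed by -0.18. The summed level of the 6 neutrophil markers was 0.89, 1.03, 0.70 and 0.99 in the order of the groups. Both sums are of unlogged levels, so the brightest marker weighs most in them. That was Elane for the neutrophil markers, at -0.78, -0.36, -0.94 and -0.29, and Lyz2 for the macrophage markers, at 9.24, 9.19, 9.03 and 9.06. The part of these markers in the lower levels of the 10 genes was not tested. None of the 10 was 2-fold lower, where 1.83% of all genes were, and none was 2-fold higher, where 1.39% were. With iron the knockdown differences were divided, 5 above 0 and 5 below, where 47.2% of 14093 genes were above 0. The median was -0.02 over the 10 genes and -0.02 over all genes. Nfkbia, Nfkbiz and Nfkb2 lay within their spot SD there, so their signs are not settled. Tnfaip3, Relb and Ptgs2 were higher, and Nfkbie, Bcl3, Rela and Nfkb1 lower, each by more than 2 spot SDs. None passed 2-fold there, where 0.859% of all genes were higher and 1.34% lower.

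**Figure D2:**
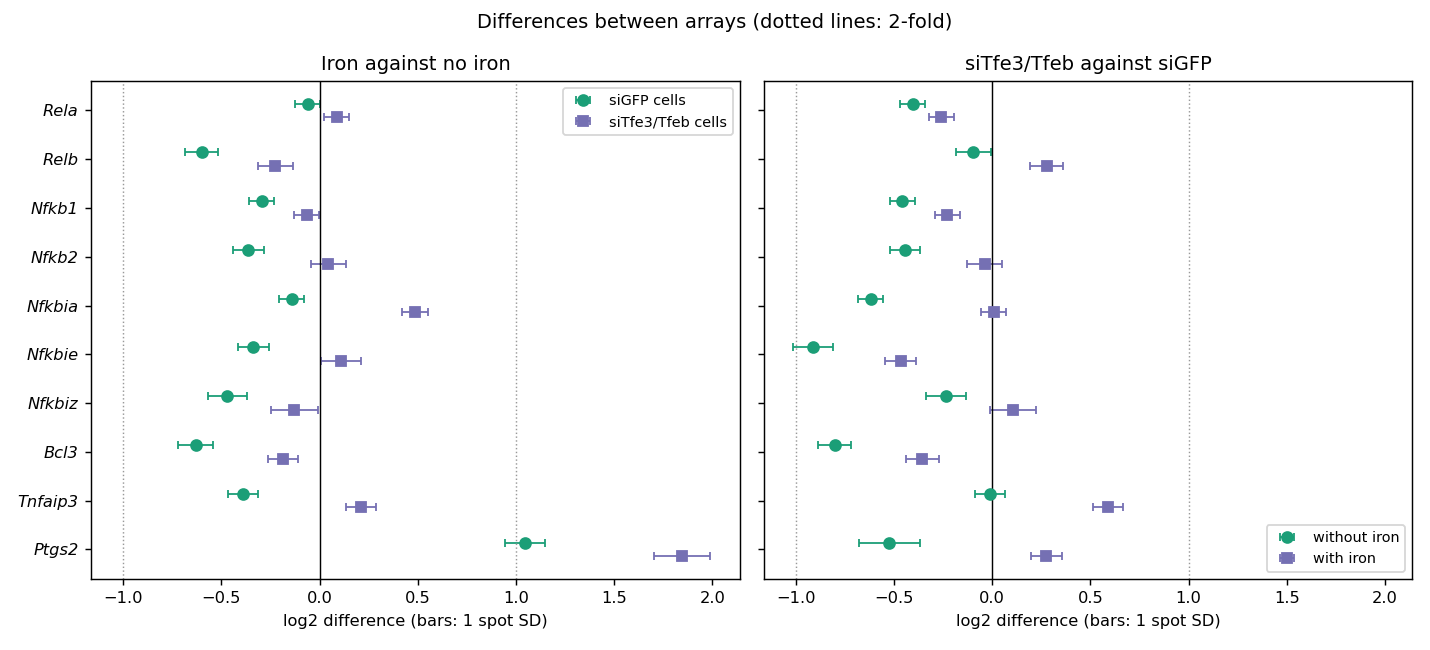
Log2 differences of the 10 genes between arrays are plotted with bars of 1 spot SD, at left iron against no iron and at right siTfe3/Tfeb against siGFP. Circles (siGFP cells, or no iron) lie below 0 for all genes but Ptgs2 at left and for all 10 at right, and every square (siTfe3/Tfeb cells, or iron) lies to the right of its circle.

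For each of the 10 genes the iron response in siTfe3/Tfeb cells was above that in siGFP cells. The difference of responses ran from 0.15 for Rela to 0.80 for Ptgs2 with a median of 0.43, whereas over 13887 genes it was above 0 for 50.1% and had a median of 0.00. After Ptgs2 (spot SD 0.18, rank 120) came Nfkbia at 0.63 (0.090, rank 300) and Tnfaip3 at 0.60 (0.11, rank 333). Nfkbie, Bcl3, Nfkb2, Relb, Nfkbiz and Nfkb1 followed at 0.45, 0.45, 0.41, 0.37, 0.34 and 0.23. None of the 10 reached 2-fold, where 0.281% of all genes were higher and 0.353% lower. Of 7 other probes of these genes 6 were above 0, while an Nfkb1 probe was at -0.01 and an Nfkbiz probe at 0.01. Taking the knockdown differences with and without iron and subtracting gives the same number. It uses the same arrays as the lower levels with knockdown and with iron in siGFP cells described above. A deviation of 1 culture and a changed iron response cannot be told apart.

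**Figure D3:**
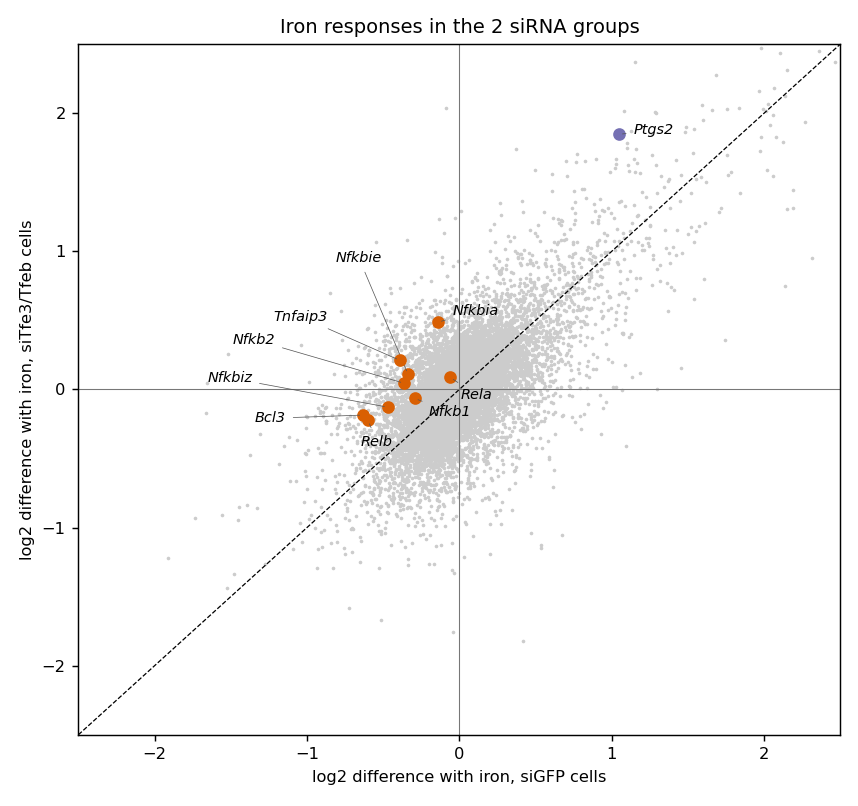
The log2 difference with iron in siGFP cells (x axis) is plotted against that in siTfe3/Tfeb cells (y axis), from arrays that the axes do not share, for the 10 genes (coloured) and 13870 of 13887 genes that fall inside the plotted range. All 10 lie above the dashed line of equal responses, 9 of them to the left of 0 and Ptgs2 at 1.05 and 1.85.

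The rest of the pathway was described from lists that do not hold the 10 genes and were chosen with earlier results of these data known. Of 10 other genes of the NF-kB and IkB family, all measured, none was 2-fold different in any comparison. Their median was -0.05 with knockdown without iron and 0.02 for the difference of iron responses. In each 5 were above 0, where 46.6% and 50.1% of all genes were. With knockdown the IkB family gene Nfkbid differed by -0.94 without iron, below the -0.91 of Nfkbie, and by -0.69 with iron. Cactin differed by -0.78 and -0.56, whereas Nkiras2 was higher by 0.49 and 0.21. Of 26 genes of the IkB kinase and the signalling above it, none was 2-fold different either. Their median was -0.09 with knockdown without iron, with a range from -0.89 to 0.62, and 0.03 for the difference of iron responses. Among 22 other negative regulators, medians were -0.04 (range -0.89 to 0.67) and 0.03 in the same comparisons. Tnip3, which codes for a partner protein of the Tnfaip3 product, was the only one past 2-fold. It stood at 2.38 without and 2.13 with iron in siGFP cells, and at 1.60 without and 2.42 with iron in siTfe3/Tfeb cells. Its difference of iron responses was 1.07, where 0.281% of all genes were at least 2-fold higher. The 10 genes had medians of -0.45 and 0.43 in these comparisons, and the lists were not tested against them.

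Other NF-kB target genes varied more. Of 32, 26 were well above background on all 4 arrays. With iron 6 were 2-fold higher and 2 lower in siGFP cells, beside 1.41% and 0.266% of all genes. In siTfe3/Tfeb cells 8 were higher and none lower with iron, beside 1.63% and 0.452%. With knockdown 1 was 2-fold higher and 8 were lower without iron, beside 1.39% and 1.83% of all genes. Under iron 1 was higher and 4 lower with knockdown, beside 0.859% and 1.34%. The median of these 26 genes was -0.43 with knockdown without iron. For the difference of iron responses it was 0.18, with 18 of 26 above 0, where 50.1% of all genes were. Mmp9, a secreted protease gene, differed by -3.74 without and -1.96 with iron between siTfe3/Tfeb and siGFP cells. The cytokine gene Tnf stood at 2.66, 3.07, 0.51 and 1.79, and Il1b, the gene of interleukin 1 beta, at 0.10, -0.33, -2.13 and -2.31. The chemokine gene Ccl4 was high on both iron arrays, as Ptgs2 was, at 4.83, 6.94, 3.65 and 6.09.

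Among 16 genes of the prostaglandin pathway around Ptgs2, 14 were measured in both iron comparisons. In siGFP cells 2 were 2-fold higher with iron, beside 1.41% of all genes, and in siTfe3/Tfeb cells 1 was, beside 1.63%. None was 2-fold lower, where 0.266% and 0.452% of all genes were. Ptgir, which codes for the prostacyclin receptor, stood at -0.21, 0.89, -0.28 and 1.47 in the order of the groups, high on both iron arrays as Ptgs2 was. The thromboxane synthase gene Tbxas1 differed with iron by 1.01 in siGFP cells, just past 2-fold, and by 0.02 in siTfe3/Tfeb cells. Ptgds, a prostaglandin D synthase gene, was not well above background on either array without iron. The iron arrays were higher by at least 1.12-fold for siGFP and at least 2.10-fold for siTfe3/Tfeb. The first enzymes of the pathway differed by less than 2-fold: Ptgs1, which codes for the constitutive cyclooxygenase, by 0.33 and 0.26 with iron, and Pla2g4a, a phospholipase gene, by 0.14 and 0.39.

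**Figure D4:**
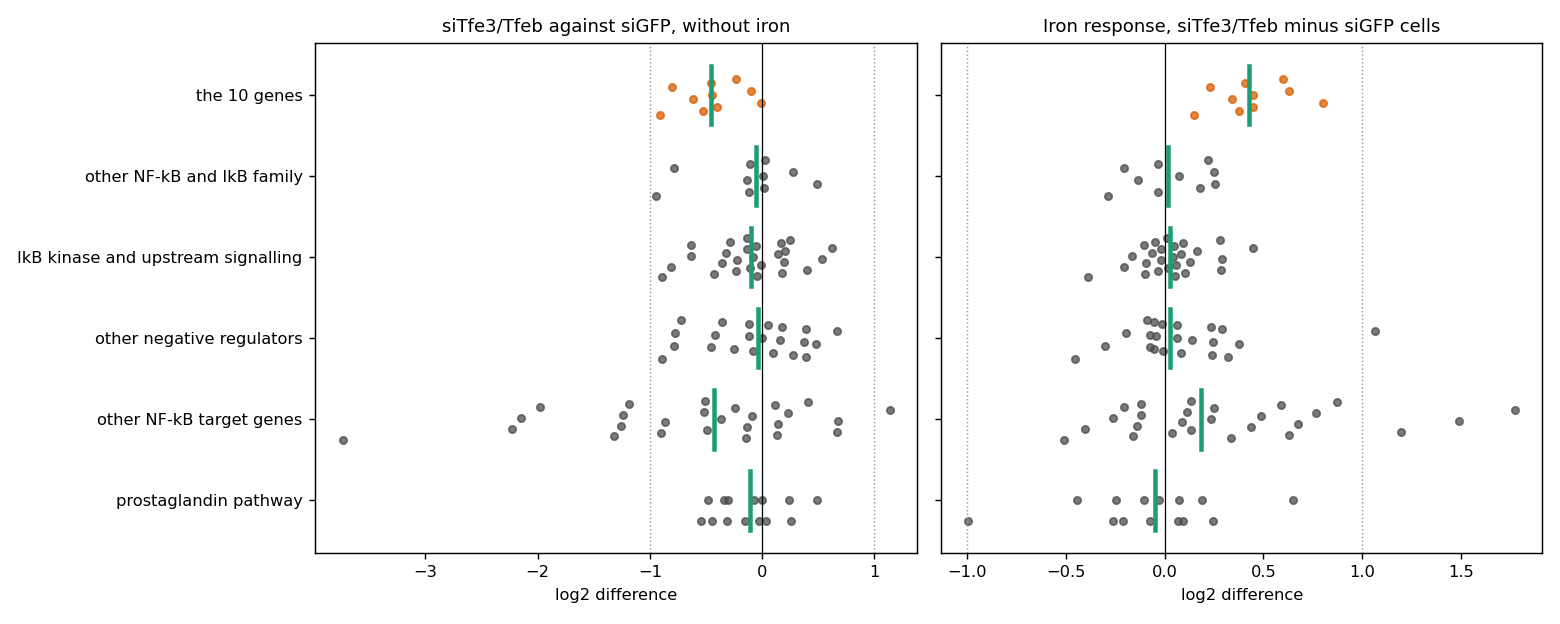
Log2 differences are plotted for the 10 genes (orange) and 5 lists of related genes (grey), each point a gene and each green bar a list's median, with vertical spread only to separate points. The medians of the 10 genes lie at -0.45 (left, knockdown without iron) and 0.43 (right, difference of iron responses), and those of the 3 lists below them between -0.09 and 0.03. The other NF-kB target genes have medians of -0.43 and 0.18, and the prostaglandin pathway of -0.11 and -0.05.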

How the data were processed

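Total RNA was labelled with Cy3 and hybridised to Agilent mouse arrays, 1 per group. Per the file headers, the deposited intensity values were background-subtracted and detrended within each array by Agilent Feature Extraction 12.0.3.1, also named in the submitters' processing notes, and not scaled between arrays. A deposited table of the whole series gives these arrays on the log2 scale, each probe centred on its median. Its differences between arrays matched those of the scanner files with a slope and a Pearson r of 1.0. Its column medians were -0.0042, 0.022, -0.087 and 0.0013 in the order of the groups.

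Levels are log2 intensity less the 75th percentile over non-control spots of that array (Python 3.11.15). Outlier spots were left out, which removed 3 of 56605 probes. RefSeq (GRCm38.p6) named 34582 probes by accession and 9474 by symbol, and 12549 named no gene. The brightest probe stood for a gene. Genes not well above background on an array of a comparison were left out of it, or given as a lower bound, set by whichever was higher on the dim array, its faintest detected probe or the probe itself. Called means past 2-fold. Normexp used limma 3.58.1. Procedures were tested on simulated data. Named genes outside the 10 are the MiT/TFE genes, up to 4 per list past 2-fold, and the 3 nearest in shape. Ptgs1, Pla2g4a, Rel, Nfkbid, Cactin, Nkiras2 and the markers named singly were added after their values were seen. The 10 genes and all lists were chosen with earlier results of these data known. The place of probes within transcripts (coding or not) was not analysed here.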

Additional observations from a re-analysis of the deposited data

Results flagged for a closer look

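With 1 array in a group, a gene whose difference has opposite signs in the 2 groups of a contrast stands out without any test, and none of the following was tested. The difference with iron was below 0 in siGFP cells and above 0 in siTfe3/Tfeb cells for Nfkbia, Nfkbie, Tnfaip3, Rela and Nfkb2. Their differences of responses were 0.63, 0.45, 0.60, 0.15 and 0.41. For Rela in siGFP cells and Nfkb2 in siTfe3/Tfeb cells the response lay within the spot SD. The knockdown difference was below 0 without iron and above 0 with iron for Nfkbia, Nfkbiz, Tnfaip3, Relb and Ptgs2. Their values of the same quantity were 0.63, 0.34, 0.60, 0.37 and 0.80. Of these, Nfkbia and Nfkbiz with iron and Tnfaip3 without iron lay within the spot SD.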

How the results depend on the processing

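Of 8 alternatives to the processing, 1, the mean over a gene's probes well above background on all arrays, was chosen after seeing the data. The median of the 10 genes kept its sign under all 8 for iron in siGFP cells (-0.36 to -0.31), iron in siTfe3/Tfeb cells (0.044 to 0.12), knockdown without iron (-0.47 to -0.40) and the difference of iron responses (0.40 to 0.50). For knockdown with iron it ranged from -0.028 to 0.080, the latter with median centring, and kept its sign under 4 of 8. The count of 1 gene at least 2-fold higher with iron in siGFP cells, Ptgs2, became 0 with normexp background correction, with either scaling. In siTfe3/Tfeb cells Nfkbiz and Bcl3 differed with iron by 0.069 and 0.0030 with the mean over all probes, which takes in probes not above background, and Nfkbiz by -0.24 with iron in siGFP cells. The other sign changes among the 10, in Tnfaip3, Nfkbia and Nfkb2 with knockdown, were of values within the spot SD. Without the filter on background, counts of all genes past 2-fold went from 201 higher and 38 lower to 903 and 677 with iron in siGFP cells, from 230 and 64 to 586 and 1290 with iron in siTfe3/Tfeb cells, from 200 and 263 to 930 and 1067 with knockdown without iron, from 121 and 189 to 456 and 1556 with knockdown and iron, and from 39 and 49 to 823 and 1717 for the difference of responses. With normexp correction and the 75th percentile they were 118 and 19, 147 and 17, 78 and 149, 45 and 89, and 11 and 8 in the same order. With normexp and quantile normalization they were 120 and 19, 144 and 19, 82 and 137, 48 and 85, and 10 and 11. For the difference of responses the mean over all probes gave 64 and 115, and median centring 60 and 36. Without the filter all values of the 10 genes were the same. The NF-kB target medians became 0.14 for iron in siGFP cells, 0.25 for iron in siTfe3/Tfeb cells and -0.15 for knockdown without iron when the filter was dropped, and the first was 0.20 and 0.21 with the normexp settings. The prostaglandin medians became 0.24 for iron in siGFP cells with the mean over all probes. With the mean over probes above background they were 0.16 for iron in siTfe3/Tfeb cells, and -0.22 and -0.23 for knockdown without and with iron. For knockdown with iron, median centring gave 0.077, 0.081, 0.084, -0.02 and -0.03 for the other family members, kinase signalling, negative regulators, targets and prostaglandin pathway. The slide as a block was not run, since the arrays lay on 1 slide. No paired analysis was possible because the labels give no replicate numbers to pair by. An additive fit of siRNA and iron over the 4 arrays, which would take the difference of responses as its error, was not run. Signal over background limits dim genes: below a level of -4 the spot SD of a difference was 0.68.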
